A study of Drosophila melanogaster with 8 samples.

Results

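The genes described here are the 8 pseudogenes of nuclear ribosomal RNA (rRNA) that the study used as its scaling reference, and the question is how the signal is divided among them and among the 18S, 28S and 5.8S types in each fraction and genotype. The 18S type has 2 members, 18SrRNA-Psi:CR41602 and 18SrRNA-Psi:CR45861. The 28S type has 5, 28SrRNA-Psi:CR40596, 28SrRNA-Psi:CR45851, 28SrRNA-Psi:CR45855, 28SrRNA-Psi:CR45859 and 28SrRNA-Psi:CR45862, and the 5.8S type has 1, 5.8SrRNA-Psi:CR45854. All 8 were found by symbol among the 13970 genes of the table, and all 8 passed the filter on low values, a mean of at least 1 TPM, the length-corrected unit of abundance explained below. The study chose them for a high mean TPM and left out the rRNAs of mitochondria, so their high level is a product of that choice and no result. The lowest of the 8, CR45862, had a mean of 50186 TPM over the libraries, and the highest nuclear gene outside the 8, 5SrRNA-Psi:CR33416, had a mean of 7723 TPM.

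Fractions were prepared from Drosophila melanogaster larvae at 4 days after egg laying. Controls were w;; larvae of the wDah background, and dmpnpaseKO larvae were homozygous for a frame shift in CG11337 (dmpnpase-/dmpnpase-), the gene of the mitochondrial polynucleotide phosphorylase. RNA of the cytosolic or the mitochondrial fraction (5 μg) was precipitated with 5 μg of J2, a monoclonal antibody against double-stranded RNA of any sequence, and 100 ng of the recovered RNA entered a directional library read with paired-end reads of 42 bp. The 4 groups of control cytosol, control mitochondria, dmpnpaseKO cytosol and dmpnpaseKO mitochondria have 2 libraries each, and the labels do not say whether the 2 came from separate preparations, so p-values measure the spread between these libraries only. The fractions come from mixed larval tissue, so that fewer cells of a type and less RNA per cell cannot be told apart, and libraries without precipitation were not analysed here.

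Nuclear rRNA genes lie in tandem repeats, the rDNA, and each unit is copied by RNA polymerase I into one precursor. Cleavage in the nucleolus frees the 18S rRNA, which enters the small ribosomal subunit, and the 5.8S and 28S rRNAs, which pair with each other at the start of the 28S rRNA and enter the large subunit. Many units of Drosophila are cut short or carry insertions in the 28S region, and such incomplete copies are annotated as pseudogenes. Mature rRNA is among the most abundant RNAs of a cell and folds into many short duplexes.

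In the BDGP6 assembly, 6 of the 8 lie on chromosome X and 2 on a separate rDNA scaffold. CR41602 (FBgn0085813, X from 23211192 to 23213166, plus strand) and CR45861 (FBgn0267521, X from 23280998 to 23282931, minus strand) each have a single exon, of 1975 and 1934 bases. The annotated functional 18S gene 18SrRNA:CR45841 is 1995 bases long, so both 18S pseudogenes are close to full length. Functional 28S genes are annotated with different lengths, 3970 bases for 28SrRNA:CR45844 and 2715 for 28SrRNA:CR45837. The exons of all 5 28S pseudogenes are shorter than the former, and those of CR40596, 2775 bases in all, are longer than the latter. CR45859 (FBgn0267519, X from 23214452 to 23217140, plus strand) has 2689 bases. CR45862 (FBgn0267522, X from 23278007 to 23280010, minus strand) has 2004 bases, and CR45855 (FBgn0267515, X from 23205822 to 23206525, plus strand) has 704 bases. CR40596 (FBgn0085753, rDNA scaffold from 16936 to 22940, plus strand) is annotated as exons of 2650 and 125 bases with 3230 bases between them. CR45851 (FBgn0267511, rDNA scaffold from 35941 to 38740, plus strand) is annotated as exons of 463 and 1258 bases with 1079 bases between them. The 5.8S pseudogene CR45854 (FBgn0267514, X from 23205258 to 23205380, plus strand) has 123 bases, the same length as the functional 5.8SrRNA:CR45842.

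**Figure D1:**
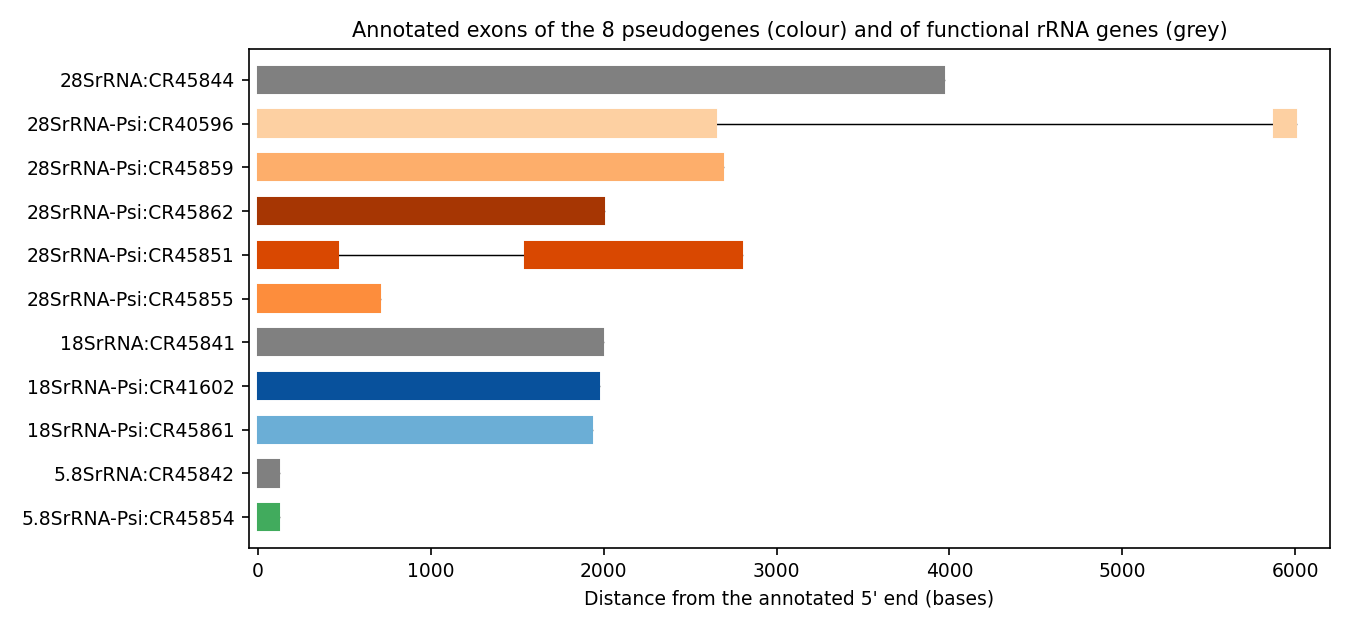
Annotated exons (boxes) of the 8 pseudogenes in colour and of functional 28S, 18S and 5.8S genes in grey, by distance in bases from the annotated 5′ end of each gene; lines join exons of one gene. The 18S and 5.8S pseudogenes are about as long as the functional genes, while the 28S pseudogenes range from 704 to 2775 exonic bases against 3970 for the functional gene drawn.

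Several members are neighbours in one rDNA unit. CR45855 starts 564 bases after the start of CR45854, a distance that is 566 bases between the functional 5.8SrRNA:CR45842 and 28SrRNA:CR45844. CR45859 starts 563 bases after its own 5.8S pseudogene, and CR40596 starts 561 bases after its own, so the annotated starts of CR45855, CR45859 and CR40596 sit at the place where a 28S gene starts. CR45861 and CR45862 both lie within the annotated precursor pre-rRNA:CR45856 (X from 23278007 to 23283731, minus strand). Copies of one rRNA can be near identical, their sequences were not compared here, and reads that match several copies are divided among them by the quantification, so the value of a single pseudogene is less certain than the sum over its type. The functional 18S, 28S and 5.8S genes named above are not among the genes of the table, so mature rRNA has no values of its own there. Whether reads of mature rRNA were assigned to the pseudogenes was not tested, so the values below may hold RNA of functional genes.

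TPM are the share of reads per base of transcript, set to the same sum in each library, so they carry no read depth and no counting error can be given. The 8 pseudogenes took 95.6% of all TPM in control mitochondria replicate 1, the most, and 42.5% in control cytosol replicate 2, the least. The 12S and 16S mitochondrial rRNAs took between 2.62% and 57.1%, the highest share also in control cytosol replicate 2. The number of genes above 0 ranged from 61 in dmpnpaseKO cytosol replicate 2 to 11051 in dmpnpaseKO mitochondria replicate 1. CG11337 was listed at 0 in 6 of the 8 libraries and at no more than 0.0415 TPM in the others, too low to check the genotype labels. Markers of larval fat body, cuticle, gut and muscle were present, while the summed level of neuronal markers reached at most 1.10 TPM and that of the adult female yolk proteins 0.111 TPM. In the mitochondrial fraction, 4 of the 4 tested gut genes and 4 of the 5 tested muscle genes were called higher in dmpnpaseKO, against 78.7% of all genes. The gut and muscle counts are thus near the share of all genes. The 4 tested fat body and 4 tested cuticle genes were called lower, against 2.53% of all genes. Summed gut markers in that fraction were 29.1 and 6.34 TPM in control and 245 and 88.7 TPM in dmpnpaseKO. The part of tissue make-up in the results below was not tested.

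The division of the 8 by type differed between the control cytosol and the other 3 groups. The 18S pseudogenes took 59.9% and 71.4% of the summed TPM in cytosolic control libraries, 37.2% and 28.3% in cytosolic dmpnpaseKO libraries, 21.2% and 27.4% in mitochondrial control libraries, and 23.8% and 22.3% in mitochondrial dmpnpaseKO libraries. The 28S pseudogenes took 35.5% and 26.9% in cytosolic control libraries, 57.8% and 68.2% in cytosolic dmpnpaseKO libraries, 61.9% and 58.8% in mitochondrial control libraries, and 57.9% and 60.4% in mitochondrial dmpnpaseKO libraries. The 18S type was thus the larger in both control cytosol libraries and the 28S type in the other 6. The 5.8S pseudogene, whose rRNA belongs to the large subunit as 28S does, followed the fraction instead. It took 4.61% and 1.76% in cytosolic control libraries, 4.99% and 3.52% in cytosolic dmpnpaseKO libraries, 16.9% and 13.7% in mitochondrial control libraries, and 18.3% and 17.3% in mitochondrial dmpnpaseKO libraries. All 4 mitochondrial libraries lay above all 4 cytosolic ones. TPM were also multiplied by annotated exonic length, as a rough stand-in for the share of reads. On this measure 18S took 63.2% and 79.3% in cytosolic control libraries and between 28.4% and 43.5% in the other 6 libraries. The 5.8S pseudogene took between 0.123% and 1.52% in all 8. The lengths used in the quantification are not given, so the read share of this short pseudogene is uncertain. Whether those lengths differed between libraries was not tested, and a fixed length cannot check it. Its TPM are therefore also uncertain, and so are its ratios and fold changes below.

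**Figure D2:**
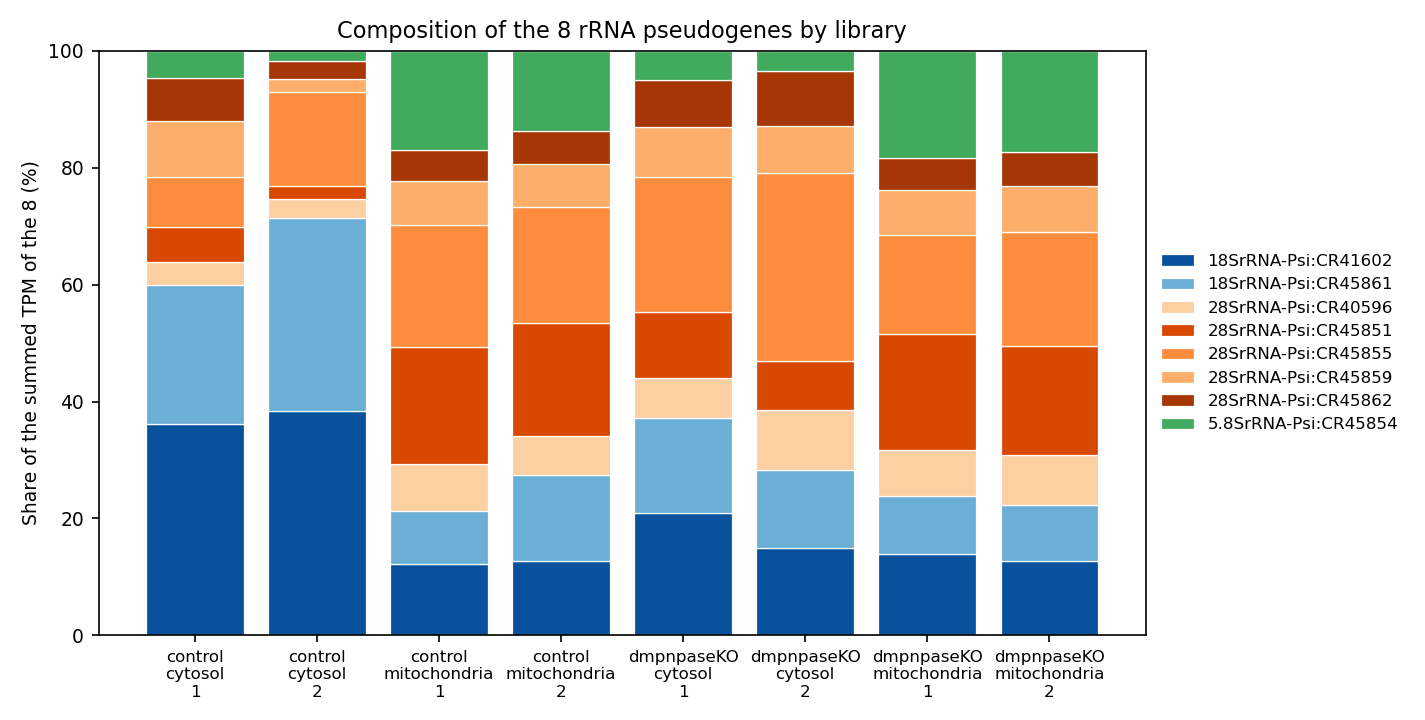
Share of each pseudogene in the summed TPM of the 8 (percent, stacked to 100) in each library, with the 18S pseudogenes in blue, the 28S in orange and brown and the 5.8S in green. Blue takes 59.9% and 71.4% of the control cytosol bars and at most 37.2% of the others, and green takes at least 13.7% of each mitochondrial bar and at most 4.99% of each cytosolic bar.

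The balance of types was measured in each library as the log2 ratio of summed TPM, a measure that does not depend on the scaling. The ratio of 28S to 18S was -0.76 and -1.41 in cytosolic control libraries, 0.64 and 1.27 in cytosolic dmpnpaseKO libraries, 1.54 and 1.10 in mitochondrial control libraries, and 1.28 and 1.44 in mitochondrial dmpnpaseKO libraries. In linear terms there were 0.592 and 0.377 TPM of 28S for each TPM of 18S in the control cytosol, and between 1.56 and 2.92 in the other 6 libraries. The control cytosol was alone below 0. Control mitochondria overlapped both dmpnpaseKO groups, and the dmpnpaseKO cytosol lay just below dmpnpaseKO mitochondria.

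Over both genotypes the 28S to 18S ratio was 1.41 higher in mitochondria than in the cytosol on the log2 scale (means 1.34 and -0.06, n = 4 each). A two-sided exact permutation test, with fraction labels exchanged within each genotype, gave p = 0.0556, the smallest p that its 36 arrangements allow, and 0.148 after Benjamini-Hochberg adjustment over the 8 tests made (4 balances, each by fraction and by genotype). This form of the test can therefore not pass 0.05. Exchanged over all 8 libraries without regard to genotype, an alternative chosen after the values were seen, the labels gave an exact permutation p = 0.0571 here and 0.0286 for each of the ratios of 5.8S to 28S and to 18S below, none of which passed after adjustment (0.152 and 0.114). Within genotypes, the difference between fractions was 2.40 in control (SD 0.46 in cytosol and 0.31 in mitochondria, n = 2 each) and 0.41 in dmpnpaseKO (SD 0.45 and 0.11, n = 2 each), the latter smaller than the spread of the dmpnpaseKO cytosol. The contrast by genotype gave 1.04 with an exact permutation p = 0.167 (adjusted 0.267). It was 2.04 in the cytosol, where the libraries did not overlap, and 0.04 in mitochondria, where they did. The difference between those values, an interaction test chosen after the values were seen, gave p = 0.222 in an exact permutation test. The observed split of the cytosolic libraries was already the most extreme, so the order of the mitochondrial libraries set this p. With a difference near 0 in mitochondria the test could not reach a small p. It therefore cannot decide whether a genotype effect is limited to the cytosol.

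The ratio of 5.8S to 28S separated the fractions in both genotypes. On the log2 scale it was -2.94 and -3.93 in cytosolic control libraries, -3.53 and -4.28 in cytosolic dmpnpaseKO libraries, -1.87 and -2.10 in mitochondrial control libraries, and -1.66 and -1.80 in mitochondrial dmpnpaseKO libraries. No mitochondrial library overlapped a cytosolic one. The difference between fractions was 1.81 (exact permutation p = 0.0556, adjusted 0.148), made of 1.45 in control and 2.18 in dmpnpaseKO. By genotype it differed by -0.11 (exact permutation p = 0.778), less than the spread between replicates. Without control cytosol replicate 1 that small value turned to 0.14, so no direction by genotype is given.

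The ratio of 5.8S to 18S spanned the widest range of the type balances, with a lowest value of 0.0247 TPM of 5.8S per TPM of 18S in control cytosol replicate 2 and a highest of 0.799 in control mitochondria replicate 1. Its log2 values were -3.70 and -5.34 in cytosolic control libraries, -2.90 and -3.01 in cytosolic dmpnpaseKO libraries, -0.32 and -1.001 in mitochondrial control libraries, and -0.38 and -0.36 in mitochondrial dmpnpaseKO libraries. The fractions did not overlap, with a difference of 3.22 (exact permutation p = 0.0556, adjusted 0.148). In the cytosol both dmpnpaseKO libraries lay above both controls, in mitochondria the genotypes overlapped, and the genotype difference of 0.93 had an exact permutation p = 0.167.

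**Figure D3:**
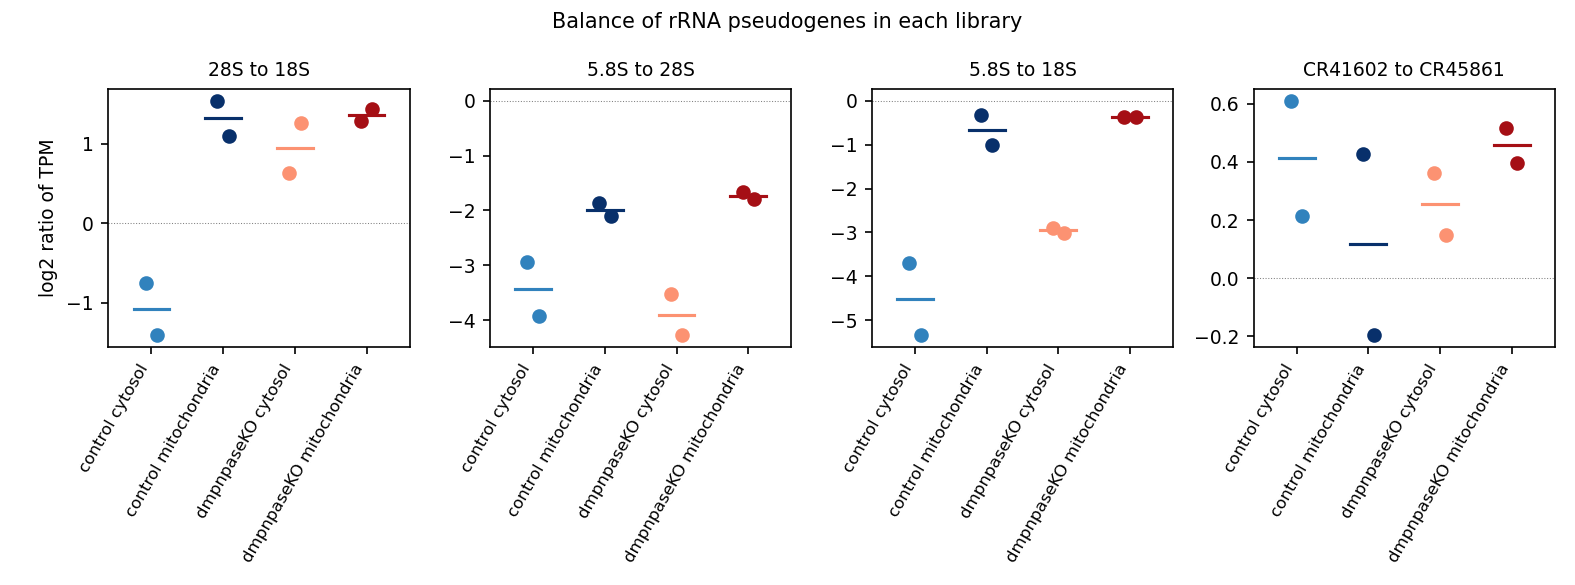
The log2 ratio of TPM between types (first 3 panels) and between both 18S pseudogenes (last panel) in each library (points) with the mean of each group of 2 (bars); each panel has its own vertical range. The control cytosol alone lies below 0 for 28S to 18S, and the 4 mitochondrial libraries lie above the 4 cytosolic ones for 5.8S to 28S and 5.8S to 18S.

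Single members were compared after dividing each library by its mean over the 8, as the study's methods do, with limma fitted to all 475 genes that passed the filter. Because the sum of the 8 is then fixed, a member can only rise in share if others fall, and a log2 fold change of a member is a change relative to the group of 8. A fit with a library left out has a single library in that group, which adds nothing to the estimate of the spread. Calls gained or lost in such fits can rest on this alone. Between the fractions of control larvae, limma placed 3 of the 8 past an adjusted p of 0.05, against 5 of all 475 genes (1.05%). These were CR41602, which was lower in mitochondria (0.211% of all genes), and CR45851 and CR45854, which were higher (0.842%). Libraries of the fractions did not overlap for 6 of the 8 in control, against 65.5% of all genes. Of the 8, 4 were higher and 2 lower in mitochondria, against 64% and 1.47% of all genes. Between the fractions of dmpnpaseKO larvae, 1 of the 8 passed, CR45854, which was higher, against 81.9% of all genes (81.1% higher). That share depends on the filter, with 27 of 68 genes at a minimum of 10 TPM and 5705 of 11606 with no filter. The libraries did not overlap for 7 of the 8, against 88.6%. Of the 8, 2 were higher and 5 lower in mitochondria, against 86.7% and 1.89% of all genes. When both genotypes were joined, 4 libraries against 4, CR45851 and CR45854 were higher and CR41602 lower in mitochondria with no overlap, 3 of the 8 against 23.4% of all genes (22.7% higher and 0.632% lower).

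The TPM of the 5.8S pseudogene CR45854 were higher in the mitochondrial fraction of both genotypes, with the uncertainty of length given above. Its TPM were 35335 and 7497 in cytosolic control libraries, 161944 and 99512 in mitochondrial control libraries, 41393 and 31137 in cytosolic dmpnpaseKO libraries, and 163859 and 121567 in mitochondrial dmpnpaseKO libraries. Every mitochondrial library was above every cytosolic one on this unscaled measure too. In dmpnpaseKO the log2 fold change was 2.09 (SE 0.55, limma adjusted p = 0.00274), 4.25-fold, and it passed the threshold under each of the 8 other settings. With a library left out it ranged from 1.84 to 2.34. In control it was 2.42 (SE 0.55, limma adjusted p = 0.0467), 5.34-fold, but moved to 1.73 without control cytosol replicate 2 and to 3.11 without replicate 1. That call was lost when any of the other 6 libraries was left out, with limma adjusted p from 0.107 to 0.691. Of the 8 other settings, the control call was kept in 4 for CR45854, in 4 for CR45851 and in 5 for CR41602.

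CR45851, a 28S pseudogene on the rDNA scaffold, was higher in mitochondria as CR45854 was. It made up 5.88% and 2.27% of the 8 in cytosolic control libraries, 20.1% and 19.3% in mitochondrial control libraries, 11.4% and 8.42% in cytosolic dmpnpaseKO libraries, and 19.9% and 18.6% in mitochondrial dmpnpaseKO libraries. Its shares in mitochondria overlapped between the genotypes, and its cytosolic shares were lower in each. Its log2 fold change between fractions was 2.43 in control (SE 0.48, limma adjusted p = 0.0246) and 0.98 in dmpnpaseKO (SE 0.48, limma adjusted p = 0.0742). Leaving out a control library does not change the dmpnpaseKO value, only the spread that the groups share. The control value was 1.74 without control cytosol replicate 2 and 3.12 without replicate 1, and the call was lost without any of the other 6 libraries (limma adjusted p from 0.0955 to 0.394).

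The 18S pseudogene CR41602 fell in control mitochondria. Its shares of the 8 were 36.2% and 38.3% in cytosolic control libraries, 12.2% and 12.8% in mitochondrial control libraries, 20.9% and 14.9% in cytosolic dmpnpaseKO libraries, and 14.0% and 12.7% in mitochondrial dmpnpaseKO libraries. The control cytosol stood far above the rest, and the lowest dmpnpaseKO cytosol library was above the highest mitochondrial one. The log2 fold change between fractions was -1.58 in control (SE 0.34, limma adjusted p = 0.0372), 2.99-fold lower, and -0.40 in dmpnpaseKO (SE 0.34, limma adjusted p = 0.279). On unscaled TPM the control value was -1.03 with an adjusted p of 0.412, and the call was also lost without any control mitochondria or dmpnpaseKO library (limma adjusted p from 0.0955 to 0.419).

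The second 18S pseudogene, CR45861, took 23.7% and 33.0% of the 8 in cytosolic control libraries, 9.04% and 14.7% in mitochondrial control libraries, 16.3% and 13.4% in cytosolic dmpnpaseKO libraries, and 9.79% and 9.62% in mitochondrial dmpnpaseKO libraries. It was highest in the control cytosol, as CR41602 was, but did not pass the test in any contrast with all libraries (limma adjusted p = 0.223 between the fractions of control). Without control cytosol replicate 1 its log2 fold change between the fractions of control was -1.52. Between those of dmpnpaseKO it was -0.61, a value that leaving out a control library does not change. The log2 ratio of CR41602 to CR45861 stayed between -0.20 and 0.61 in the 8 libraries. It differed by -0.05 between fractions and by 0.09 between genotypes (exact permutation p = 0.833 and 0.722), both less than the spread between replicates, and both change sign with 1 library left out. The divergence of the 18S type between groups was thus seen in the values of both members, which lie on opposite strands and in different units of chromosome X. Reads that match both copies are divided between them, so their values are not independent. A steady ratio does not show that both loci changed.

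**Figure D4:**
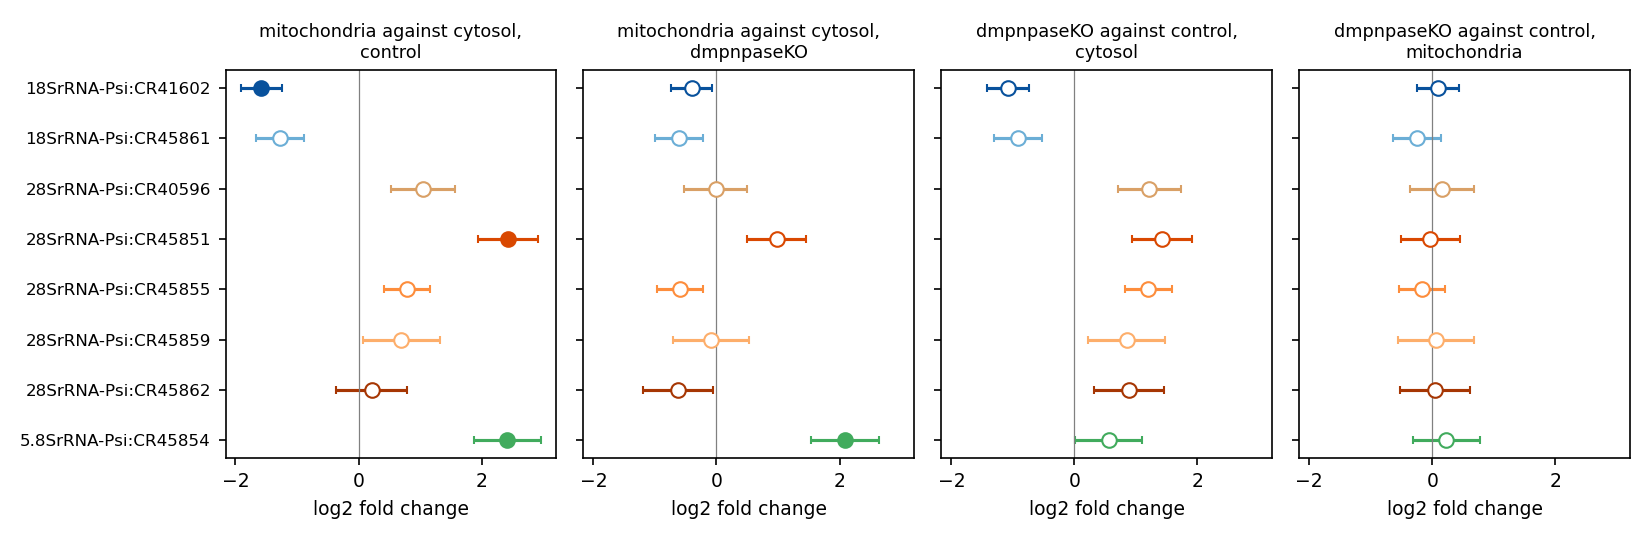
Log2 fold change of each pseudogene after scaling on the mean of the 8 (points) with its standard error from limma (bars) in 4 contrasts; filled points passed an adjusted p of 0.05. Filled points are CR41602, CR45851 and CR45854 in the control fraction contrast and CR45854 in that of dmpnpaseKO, and the points of the genotype contrast in mitochondria all lie between -0.25 and 0.23.

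Within the 28S type, the members divided the signal differently by fraction, which is given as a description with no test. CR45855, the shortest, took 24.3% and 60.1% of the summed 28S TPM in cytosolic control libraries, 39.8% and 47.1% in cytosolic dmpnpaseKO libraries, 33.7% and 33.6% in mitochondrial control libraries, and 29.1% and 32.3% in mitochondrial dmpnpaseKO libraries. Replicates of the control cytosol differed more than any of the other groups here. CR45851 took 16.6% and 8.44% of the 28S sum in the control cytosol, 19.6% and 12.3% in cytosolic dmpnpaseKO libraries, and between 30.8% and 34.5% in the 4 mitochondrial libraries, which did not overlap the cytosolic ones. CR40596 kept between 11.2% and 14.98% of the 28S sum in every library.

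CR45859 and CR45862 both had a larger part of the 28S sum in control cytosol replicate 1 than in replicate 2. CR45859 took 27.0% of the 28S sum in control cytosol replicate 1, 8.32% in replicate 2, and between 11.8% and 14.8% elsewhere. CR45862 took 20.9% and 11.2% in cytosolic control libraries, 14.0% and 13.8% in cytosolic dmpnpaseKO libraries, and between 8.64% and 9.57% in mitochondria. Its 4 mitochondrial libraries were below all 4 cytosolic ones in this share. Between the fractions of control, limma called neither CR45859 nor CR45855 with all libraries. The log2 fold change was 1.75 for CR45859 without control cytosol replicate 1 and 1.23 for CR45855 without replicate 2. The leading 28S pseudogene was CR45859 in control cytosol replicate 1, CR45851 in dmpnpaseKO mitochondria replicate 1 and CR45855 in the other 6 libraries. The lowest was CR45862 in all 4 mitochondrial libraries and CR40596 or CR45859 in the cytosolic ones.

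By genotype, log2 fold changes were larger in the cytosol than in mitochondria, and none of the 8 was called with all libraries. Against the control cytosol, both 18S pseudogenes had lower and the other 6 had higher values in the dmpnpaseKO cytosol, with log2 fold changes from -1.08 for CR41602 to 1.42 for CR45851. None of the 475 genes passed in this contrast (0%, smallest limma adjusted p among the 8 of 0.292), while 47 genes, or 9.89%, had an unadjusted p under 0.05. Among the 8 this held for 5, CR41602 (-1.08, SE 0.34), CR45861 (-0.92, SE 0.39), CR40596 (1.22, SE 0.52), CR45851 (1.42, SE 0.48) and CR45855 (1.20, SE 0.38). The libraries of the genotypes did not overlap for 6 of the 8, of which 4 were higher and 2 lower in dmpnpaseKO, against 13.9% of all genes (8.63% higher and 5.26% lower). The size of these changes depended on single control libraries. Without control cytosol replicate 1, the log2 fold changes were -1.12 for CR41602, 2.11 for CR45851 and 1.90 for CR45859. Without replicate 2, CR45855 was at 1.65 and CR45851 at 0.73. On unscaled TPM the contrast called 31 of the 475 genes, with CR45851 and CR45855 among them. The 2 without separation were CR45859, which was 0.85 higher but turned to -0.20 when control cytosol replicate 2 was left out, and CR45854, which was 0.56 higher and turned to -0.14 likewise.

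In the mitochondrial fraction each of the 8 differed between genotypes by less than its standard error. Log2 fold changes of dmpnpaseKO against control ran from -0.25 for CR45861 to 0.23 for CR45854, and none of the 8 passed (smallest limma adjusted p of 0.569, none with an unadjusted p under 0.05), in a contrast where 81.3% of all genes passed and 82.3% had an unadjusted p under 0.05. These shares depend on the filter, which a gene could pass through high values in a single group. With a minimum of 10 TPM 18 of 68 genes passed, and with no filter 5525 of 11606. The libraries did not overlap for 3 of the 8, against 94.7% of all genes. Of the 8, 2 were higher and 1 lower in dmpnpaseKO, against 91.4% and 3.37% of all genes. The median log2 fold change was 0.05 for the 8 and 2.23 for all 475 genes, a set that holds many genes at or near 0 in some libraries. Dividing by the mean of the 8 fixes their sum, so a change of the 8 as a group could not show here. These comparisons with all genes therefore do not show that the 8 were unchanged. The test of the change of the genotype contrast between fractions called none of the 8, against 31.2% of all genes, with CR45855 (-1.37, limma adjusted p = 0.0556) and CR41602 (1.17, limma adjusted p = 0.0607) nearest to the threshold. With a library left out, CR45855 ranged from -1.82 to -0.92 and CR41602 from 0.93 to 1.42. CR45851 was at -2.14 without control cytosol replicate 1, and CR45855 at -1.82 without replicate 2.

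The whole composition was compared by the distance between libraries, the root of the summed squared differences of log2 shares after centring each library on its mean over the 8. Between control and dmpnpaseKO mitochondria the 4 distances ran from 0.233 to 0.798, no larger than the 0.813 between both control mitochondria libraries. Replicates of the dmpnpaseKO cytosol were 1.17 apart and those of the control cytosol 2.82 apart. Distances between the control cytosol and control mitochondria ran from 3.13 to 5.10. The control cytosol was thus both the group farthest from mitochondria and the least repeatable.

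How steadily members kept their ratio was measured as the standard deviation of the log2 ratio of each of the 28 pairs over the 8 libraries. The steadiest pairs were CR41602 with CR45861 (0.25), CR45859 with CR45862 (0.36) and CR40596 with CR45855 (0.42). Without control cytosol replicate 2 these pairs stood at 0.271, 0.268 and 0.270, with no order among them. Pairs of one type had a median of 0.64 (11 pairs) and pairs of different types a median of 1.19 (17 pairs). Without that library the medians were 0.59 and 1.03. CR45851 kept a steadier ratio to the 5.8S pseudogene CR45854 (0.46, and 0.49 without that library) than to any other 28S pseudogene (at least 0.76, and 0.62 without it). It was the steadiest pair of different types over all 8 libraries but not without control cytosol replicate 2, when CR45861 with CR45859 (0.40), CR45861 with CR45862 (0.41) and CR41602 with CR45859 (0.45) were steadier. The least steady were both 18S pseudogenes with CR45854 (1.89 each, and 1.49 and 1.47 without that library). Pairs share libraries and members, so these values are a description.

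**Figure D5:**
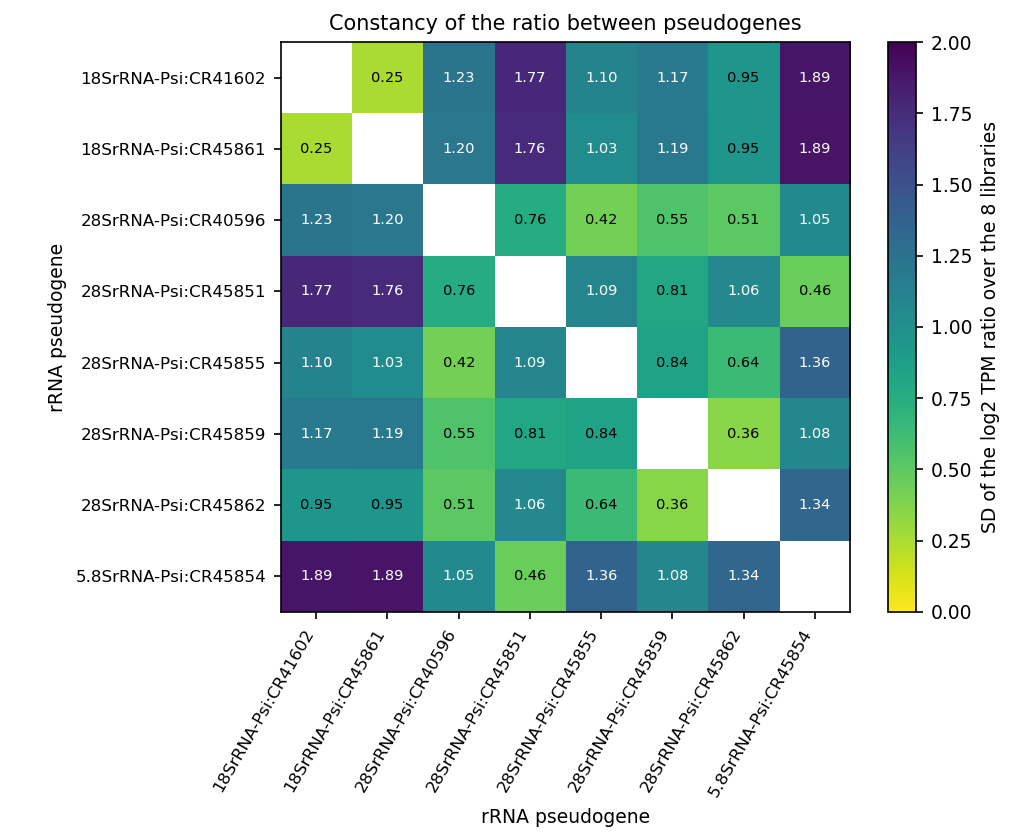
Standard deviation over the 8 libraries of the log2 TPM ratio between each pair of pseudogenes (colour and printed value). The 18S pair is at 0.25 and the 18S to 5.8S pairs are at 1.89 (0.271, 1.49 and 1.47 without control cytosol replicate 2), and CR45851 is closer to the 5.8S pseudogene (0.46) than to any other 28S pseudogene.

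Outside the 8, the table holds 14 further nuclear rRNA rows, which took between 0.480% and 4.13% of the summed TPM of the 8 in each library. Of these, 11 had a mean of at least 1 TPM and 3 were listed at 0 in every library. In dmpnpaseKO cytosol replicate 2, 12 of the 14 were listed at 0, and the 2 above 0 in all libraries were 5SrRNA-Psi:CR33416 and pre-rRNA:CR45856. CR33416, a copy of the separately transcribed 5S rRNA of the large subunit, ranged from 1330 TPM in control cytosol replicate 2 to 22908 TPM in dmpnpaseKO mitochondria replicate 2. A further 5.8S copy, 5.8SrRNA-Psi:CR45863, reached 6035 TPM in control mitochondria replicate 1, against 161944 TPM for CR45854. The precursor pre-rRNA:CR45856, which spans CR45861 and CR45862, had a mean of 154 TPM. The others with a mean of at least 1 TPM were 5SrRNA-Psi:CR33363, 28SrRNA-Psi:CR41609, 28SrRNA-Psi:CR45853, 28SrRNA-Psi:CR40741, 28SrRNA-Psi:CR45848, 5.8SrRNA-Psi:CR45857, 28SrRNA-Psi:CR45860 and 5.8SrRNA-Psi:CR45849, with means from 7.90 to 380 TPM. The 5.8S pseudogenes of the units of CR45859 and CR40596, CR45857 and CR45849, were at 13.2 and 7.90 TPM while their 28S neighbours were among the 8. Reads that match several 5.8S copies are divided among them, so these values need not be the 5.8S level of each unit.

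Of 20 mRNAs for RNA polymerase I and nucleolar rRNA processing, 17 were matched and only Non1, a nucleolar GTPase of large subunit assembly, passed the filter on low values. Non1 was higher in dmpnpaseKO than in control mitochondria by 3.43 (SE 0.60, limma adjusted p = 0.000868) on the scale of log2(scaled TPM + 1), in a contrast that called 81.3% of all genes. The summed level of the list was at most 0.870 TPM in control and 24.0 TPM in dmpnpaseKO libraries. Genes outside the 8 whose profile was most like a member were named by Pearson correlation over the 8 libraries, as a description. CR41602 was most like Arc1 (0.91) and the 12S mitochondrial rRNA (0.76). CR45861 was most like the 12S (0.91) and 16S (0.88) mitochondrial rRNAs. For CR45854 they were 28SrRNA-Psi:CR45860 (0.94) and CG15597 (0.94), and for CR45851 5.8SrRNA-Psi:CR45849 (0.84) and 28SrRNA-Psi:CR45860 (0.84), all with libraries at 0. CR40596 was most like mt:Cyt-b (0.83) and CG13731 (0.82), and CR45855 was most like pre-rRNA:CR45856 (0.79) and mt:Cyt-b (0.72). CR45859 (RpL41 0.45, MtnA 0.41) and CR45862 (CG15293 0.57, Cth 0.54) had no close match.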

How the data were processed

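The authors quantified paired-end reads with salmon 0.11.3 against the BDGP6 cDNA set of Ensembl release 94 and deposited TPM values for 13970 genes in 8 libraries. The step from transcripts to genes is not given in the sources used here. Groups came from the labels, which match the columns (columns without a library: 0). Symbols were matched by identifier for 13745 genes, with positions from annotation release 115 of BDGP6. The functional 18S, 28S and 5.8S rRNA genes named above are not among the genes of the table.

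Each library was divided by its mean TPM over the 8 pseudogenes and brought back to the overall level of these means. The 475 genes averaging 1 TPM or more entered the tests on the scale of log2(scaled TPM + 1), on which changes of low genes come out too small. limma 3.58.1 in R 4.3.3 (with an intensity trend in eBayes) was fitted to 4 group means, with Benjamini-Hochberg adjustment and a threshold of 0.05. Type balances were log2 ratios of summed TPM, tested by exact two-sided permutation within strata. TPM do not separate the strands. The fit was tested on simulated data for the control fraction contrast, with 200 of 475 genes changed. It recovered 0%, 70% and 96.5% of them at log2 changes of 1, 2 and 4, with 0, 5 and 10 false calls.

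The named genes are the 8, other rRNA rows with a mean of at least 1 TPM, the 2 genes most like each member and the listed pathway and marker genes. Members and lists were chosen with earlier results of these data known. As alternatives, TPM were left unscaled or scaled on the geometric mean of the 8, and further settings were pseudocounts of 0.1 and 10, a minimum of 10 TPM, no filter, eBayes without the trend, the replicate block, all rRNA pseudogenes of a type, TPM times exonic length, geometric type means, permutation without strata, added after the data were seen, and leaving out each library. Figures were drawn with matplotlib 3.10.9.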

Additional observations from a re-analysis of the deposited data

Results flagged for a closer look

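The 28S pseudogene CR45855 had log2 fold changes of opposite sign in control and dmpnpaseKO and in cytosol and mitochondria, with every library of a group on the same side, although none of these changes passed the test. Between fractions its log2 fold change was 0.78 in control and -0.59 in dmpnpaseKO, and between genotypes it was 1.20 in the cytosol and -0.17 in mitochondria (limma adjusted p of 0.525, 0.159, 0.292 and 0.697 in that order), the last smaller than its standard error of 0.38. Leaving out a control library does not change the value between the fractions of dmpnpaseKO, only the spread that the groups share. The limma test of the difference between these contrasts gave -1.37 with an adjusted p of 0.0556. CR45855 was flagged for this opposite separation in the same values, so the test is no separate support. The rule was applied to the 8 only, and the share of all genes that meet it was not counted. The limma adjusted p was 0.0424 with a pseudocount of 10 and 0.307 with a minimum of 10 TPM. With a library left out, the difference ranged from -1.82 to -0.92.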

How the results depend on the processing

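Limits: each group has 2 libraries, TPM carry no depth, and the count of genes called changed with many of the choices, while the cause of these changes was not tested. Unscaled TPM called 31 genes for dmpnpaseKO against control in the cytosol, 11 between the fractions of control and 0 for the difference between contrasts. A pseudocount of 0.1 called 14 genes between genotypes in the cytosol, 191 in mitochondria and 4 for the difference, and a pseudocount of 10 called 303 for the difference. A minimum of 10 TPM, which left 68 genes, called 18 between genotypes in mitochondria, 27 between the fractions of dmpnpaseKO and 0 for the difference. With no filter, which left 11606 genes, the counts were 5525, 5705 and 2167, and 3 between the fractions of control. The geometric mean of the 8 called 3 between the fractions of control, and eBayes without the trend called 1 there and 0 for the difference. In the main fit these counts were 0 and 386 between genotypes in cytosol and mitochondria, 5 and 389 between the fractions of control and dmpnpaseKO, and 148 for the difference. With each library left out in turn they ranged from 0 to 28, 259 to 417, 0 to 15, 311 to 423 and 1 to 390.

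In the control fraction contrast, unscaled TPM moved the median log2 fold change of all 475 genes by 0.14 and that of the 8 by 0.55, and the geometric mean moved them by -0.13 and -0.59. The geometric mean turned CR45862 to -0.38 in that contrast and ended the calls of CR45851 (limma adjusted p = 0.0673) and CR45854 (0.167). A pseudocount of 10 also ended both, and no filter or no trend ended all 3 calls of that contrast. Unscaled TPM turned CR45859 and CR45862 to -0.013 and -0.030 between genotypes in mitochondria. The share of CR40596 in the 28S sum, mitochondria minus cytosol, turned to -0.351 percentage points with TPM times exonic length.

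Left-out libraries reversed some small values. Between genotypes in the cytosol, CR45854 ranged from -0.14 to 1.25 and CR45859 from -0.20 to 1.90. In mitochondria CR45851 ranged from -0.082 to 0.020 and CR45861 from -0.59 to 0.10. Between the fractions of control, CR45859 ranged from -0.35 to 1.75 and CR45862 from -0.44 to 0.86, and between those of dmpnpaseKO CR40596 ranged from -0.31 to 0.28. The genotype difference of 5.8S to 28S ranged from -0.35 to 0.14. The ratio of CR41602 to CR45861 ranged from -0.20 to 0.11 by fraction and from -0.066 to 0.25 by genotype. The share of CR45859 in the 28S sum by fraction ranged from -5.05 to 1.16 percentage points. The adjusted p of the type balances say nothing about stability, since the permutation tests could hardly pass the threshold. The 28S to 18S ratio ranged from 1.24 to 1.57 by fraction and from 0.87 to 1.20 by genotype, 5.8S to 28S from 1.57 to 2.06 by fraction, and 5.8S to 18S from 2.81 to 3.63 and from 0.52 to 1.34.

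The replicate numbers are shared across groups, but the labels do not say what a number stands for. Deviations of same-numbered libraries over the 475 genes had correlations from -0.013 to 0.68, 0.35 between the fractions of control and 0.018 between those of dmpnpaseKO. Over the 8 pseudogenes alone the latter was 0.95 and the others ran from -0.22 to 0.37. With the replicate number as a block, 239 genes were called for the difference between contrasts, with CR45855 (limma adjusted p = 0.0356) and CR41602 (0.0477) among them, and CR45851 was called between the fractions of dmpnpaseKO (0.046). CR41602 was also called for that difference with the geometric mean (0.0444), a pseudocount of 10 (0.0306) and no filter (0.0324), and CR45855 with a pseudocount of 10 (0.0424). The exact permutation test with labels swapped within pairs gave p = 0.125, its smallest, for the 3 type balances by fraction.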
